A study of Mus musculus with 4 samples.

Results

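The 41 genes described here encode the proteasome of mouse lung, its regulators and assembly chaperones. They were taken from a table of 17691 genes by name: the symbol had to start with Psma, Psmb, Psmc, Psmd or Psme followed by a digit, Psmb8 and Psmb9 were left out, and the mean level had to reach 1 FPKM (fragments per kilobase of transcript, scaled to sequencing depth) over 4 libraries. The name rule found 43 genes and 2 of them lay under that level. They were Psmb11, the thymus-specific catalytic subunit, with a mean of 0.593 FPKM, and Psma8, a testis-specific subunit, with 0.345 FPKM. The lowest members above the limit were Psmc3ip at 3.14 FPKM and Psme2b at 7.54 FPKM. Psmc3ip was found by its name only: it encodes a partner of meiotic recombinases and is no proteasome subunit. The groups were lungs of C57BL/6 mice, wild-type and 6 to 8 weeks old, given PBS, a buffer, or bleomycin, a DNA-breaking drug that injures the lung, through the nose for 10 days. Each group had 2 libraries. Nothing in the labels ties each library to its own animal, so the p-values reflect no more than how far these samples lie apart, and that spread may be technical.

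The proteasome is the barrel-shaped protease that degrades proteins marked with ubiquitin in the cytosol and nucleus. Its 20S core stacks outer rings of alpha subunits, which gate the entrance, on inner rings of beta subunits, which hold the active sites. The 19S regulator caps the core. Its base unfolds substrates with a ring of ATPases, and its lid removes the ubiquitin chains. Other caps, the PA28 and PA200 activators, open the gate without ubiquitin. In immune cells and under interferon gamma, catalytic beta subunits are exchanged for immunoproteasome forms such as the product of Psmb10.

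Lung markers were high in all 4 libraries, with the alveolar surfactant gene Sftpc at 7913 to 12788 FPKM. Depth came to about 17000000 to 17800000 fragments per library, an estimate from the spacing of low FPKM values. Over all tested genes the median SD between replicates on the log2 scale was 0.115 for bleomycin and 0.064 for PBS, and over the proteasome genes it was 0.074 and 0.072. The Y-linked gene Eif2s3y had 26.4 and 28.9 FPKM in the PBS lungs, against a listed 0 in each bleomycin library. A difference in sex between the groups therefore cannot be told apart from treatment, for sex-linked or any other genes. The 7 hepatocyte markers summed to 91.7 and 90.5 FPKM in the PBS lungs and to 9.17 and 7.42 FPKM with bleomycin, and their part in the results was not tested. The secretory gene Scgb1a1 took 11.2% and 8.35% of the FPKM sum in the PBS lungs but 3.98% and 4.28% after bleomycin. A change in so abundant a transcript can shift the FPKM of other genes, by an amount that was not measured.

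After bleomycin 4 of the 41 genes rose, namely Psmd8, Psmd14 and Psmd11 of the 19S lid and Psma4 of the 20S alpha ring, and 0 fell, by limma on log2(FPKM + 1) at an adjusted p under 0.05. The share of 9.76% is close to the background, since 8.59% of the 12986 tested genes rose and 7.69% fell. The sizes were small, from 1.27-fold to 1.52-fold on the scale of FPKM + 1. By unadjusted p, with the same limit, 17 of the 41 were higher and 0 lower, where 17.2% of all tested genes were higher and 18.1% lower. Leaving out either PBS library ended every limma call in the whole table, and unadjusted p values under 0.05 then numbered 1 and 3 among the 41, all for higher levels. Without bleomycin replicate 1 there were 14 rises and 3 falls among the 41, beside 18% of tested genes that rose and 24.2% that fell. Without bleomycin replicate 2 there were 10 rises and 0 falls, beside 18.5% and 15%. After rescaling to TPM 8 rose and 0 fell, beside 11.1% and 6.83% of tested genes. With the replicate number as a block 2 rose and 0 fell, beside 6.48% and 6.15%, and the calls of Psma4 (adjusted p = 0.078) and Psmd11 (adjusted p = 0.0919) were lost.

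The DNA just before the start of the 4 genes that rose is shown here to let their upstream sequences be compared, beside that of Psmb5, a catalytic subunit with a match to the first of the motifs searched. The sequences are from RefSeq (GRCm38.p6), 5′ to 3′ on the strand of the gene, and end at the base before the annotated gene. Capitals mark matches to TGACNNNGC or TGAGNNNGC, forms of the antioxidant response element core bound by NRF1 and NRF2, and to CCAAT, the NF-Y box. The windows are chr7:29180674-29180923 (minus strand), chr2:61711444-61711693 (plus strand), chr11:80428365-80428614 (plus strand), chr9:54950609-54950780 (plus strand) and chr14:54617996-54618245 (minus strand).
Psmd8: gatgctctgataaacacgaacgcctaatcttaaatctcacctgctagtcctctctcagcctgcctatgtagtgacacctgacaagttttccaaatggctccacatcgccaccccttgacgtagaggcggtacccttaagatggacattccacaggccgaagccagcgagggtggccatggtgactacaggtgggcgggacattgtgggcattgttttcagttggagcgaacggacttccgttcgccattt
Psmd14: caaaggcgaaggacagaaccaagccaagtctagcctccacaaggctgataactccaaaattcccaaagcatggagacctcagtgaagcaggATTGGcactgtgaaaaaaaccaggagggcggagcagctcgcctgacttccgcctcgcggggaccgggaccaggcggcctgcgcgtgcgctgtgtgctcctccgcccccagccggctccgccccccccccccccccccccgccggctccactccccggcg
Psmd11: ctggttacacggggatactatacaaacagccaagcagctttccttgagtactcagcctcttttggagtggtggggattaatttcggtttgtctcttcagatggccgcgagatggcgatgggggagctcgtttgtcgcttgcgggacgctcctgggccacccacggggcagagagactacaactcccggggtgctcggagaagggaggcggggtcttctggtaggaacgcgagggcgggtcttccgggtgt
Psma4: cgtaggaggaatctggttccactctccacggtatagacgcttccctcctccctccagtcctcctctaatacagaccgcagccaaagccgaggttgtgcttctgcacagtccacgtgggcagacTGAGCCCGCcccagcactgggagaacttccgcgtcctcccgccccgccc
Psmb5: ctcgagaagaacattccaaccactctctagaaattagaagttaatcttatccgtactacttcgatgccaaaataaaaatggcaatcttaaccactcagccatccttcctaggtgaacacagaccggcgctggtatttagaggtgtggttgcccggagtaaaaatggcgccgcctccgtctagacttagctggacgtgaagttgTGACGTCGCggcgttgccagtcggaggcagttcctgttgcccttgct
A promoter was found for 35 of the 41 genes, and the 250 bases before the first listed start were searched on both strands. That start can lie inside the annotated gene, and only bases before the annotated gene are printed. This holds for Psma4, with 172 bases printed, whose match lies 127 to 119 bases before the listed start. Within the 35 windows no match overlapped a match of another motif. TGACNNNGC was found in 5 of the 35 (14.3%), against 12.1% of 10364 tested genes and 10.1% of all 27025 promoters of that length. TGAGNNNGC was found in 8 of the 35 (22.9%), against 16% of tested genes and 14.2% of all promoters. CCAAT was found in 13 of the 35 (37.1%), against 36.1% and 34.5%. Of the 4 genes that rose, Psma4 had a TGAGNNNGC and Psmd14 a CCAAT on the opposite strand, printed as ATTGG, while the windows of Psmd8 and Psmd11 held none of these letters. In Psmb5 the TGACNNNGC lies 47 to 39 bases before the start. The median GC content of the windows was 57.2% for the 35 genes and 59.6% for tested genes.

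The 20S alpha ring was represented by 7 genes. Psma4 (gene 26441, chromosome 9, 54950781 to 54958034), which encodes an alpha ring subunit, stood at 67.1 and 66.6 FPKM in the PBS lungs and at 88.9 and 86.4 FPKM with bleomycin. Both bleomycin libraries lay above both PBS libraries, with gaps within each pair far smaller than the gap between groups. Psma4 rose by 0.39 ± 0.08 on the log2 scale (SE, limma adjusted p = 0.0357), a call lost with eBayes without a trend (adjusted p = 0.0539). The smallest difference was that of Psma6, also of the alpha ring, at 95.9 and 97.02 FPKM in the PBS lungs and 104.0 and 105.8 FPKM with bleomycin. Its log2 difference of 0.12 ± 0.08 did not pass (adjusted p = 0.324), although its groups did not overlap. All 7 alpha genes were higher with bleomycin without overlap, as were 29 of the 41 genes (70.7%), while 31.5% of tested genes were higher without overlap and 35% lower. The median log2 difference of the alpha ring was 0.21, where all tested genes had -0.02. Psma1, Psma3 and Psma7 came close to overlap: for Psma7 the higher PBS library was at 107.4 FPKM and the lower bleomycin library at 108.4 FPKM.

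Of the 8 genes of the 20S beta ring 0 passed, and by unadjusted p 4 of 8 were higher and 0 were lower. Psmb4, a structural beta subunit, had the largest difference. It was at 98.0 and 109.3 FPKM in the PBS lungs and at 126.0 and 137.0 FPKM with bleomycin, a log2 difference of 0.34 ± 0.10 (adjusted p = 0.086). Psmb5, Psmb6 and Psmb7 encode the constitutive catalytic subunits with chymotrypsin-like, caspase-like and trypsin-like activity. Psmb7 was at 113.3 and 114.0 FPKM in the PBS lungs and at 134.3 and 134.4 FPKM with bleomycin. These pairs are the closest among the 3 catalytic genes, yet the log2 difference of 0.24 ± 0.08 did not pass (adjusted p = 0.104). Psmb5 had 0.34 ± 0.09 (adjusted p = 0.0757) and Psmb6 0.19 ± 0.12 (adjusted p = 0.303).

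Psmb10, the immunoproteasome counterpart of Psmb7, had the lowest log2 difference of the 41 genes. It was at 51.8 and 59.9 FPKM in the PBS lungs and at 55.7 and 36.2 FPKM with bleomycin. Bleomycin replicate 1 lay between the PBS libraries and replicate 2 below them all. Its log2 difference was -0.30 ± 0.22 (adjusted p = 0.377). Without bleomycin replicate 1 it was -0.61, and without replicate 2 it was -0.00. The ratio of Psmb10 to Psmb7 was 0.457 and 0.526 with PBS and 0.415 and 0.269 with bleomycin, so the groups did not overlap in the ratio, mostly through replicate 2.

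**Figure D1:**
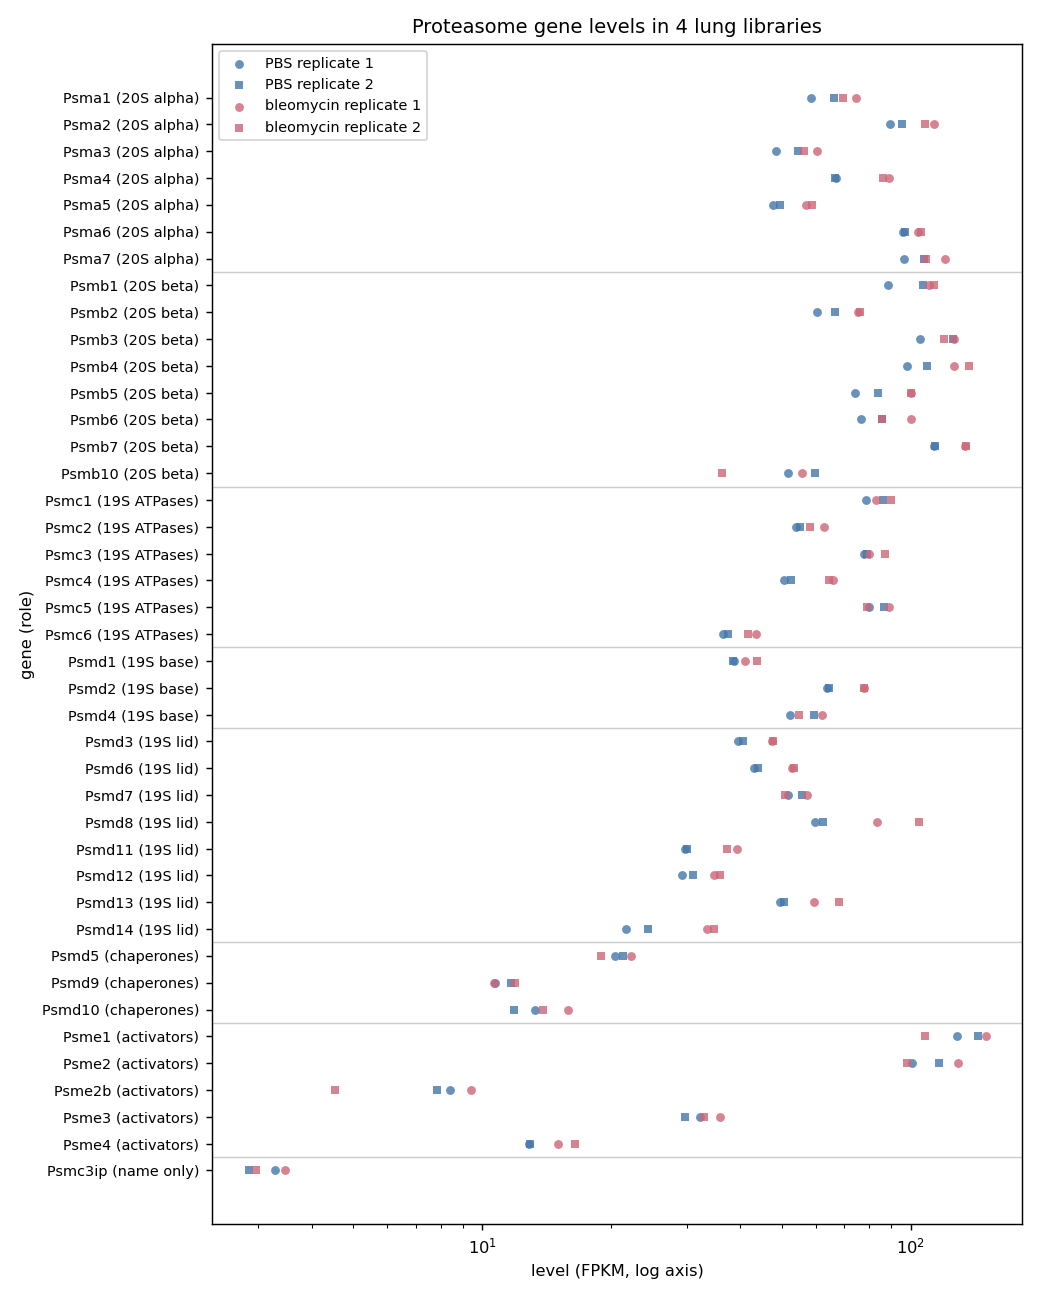
Level of each of the 41 genes in FPKM on a log axis, with 1 point per library, blue for PBS, red for bleomycin, circles for replicate 1 and squares for replicate 2, grouped by role. Red points lie to the right of blue points for all 7 alpha ring genes. For Psmb10, Psme1, Psme2 and Psme2b the red square (bleomycin replicate 2) is the lowest of the 4. It is also the lowest, by less, for Psmc5, Psmd7 and Psmd5.

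In the 19S base 0 of 6 ATPase genes passed. These encode the ring that unfolds substrates and threads them into the core. Psmc4 came nearest, at 50.7 and 52.6 FPKM in the PBS lungs and at 65.8 and 64.4 FPKM with bleomycin. Its groups were well apart, with a log2 difference of 0.33 ± 0.08 and an adjusted p of 0.0521. Psmc5 was at 79.9 and 86.5 FPKM in the PBS lungs and at 88.8 and 79.1 FPKM with bleomycin, so its groups overlapped fully (0.01 ± 0.10, adjusted p = 0.945). The other 4 ATPase genes had log2 differences from 0.07 (Psmc1) to 0.20 (Psmc6). The base also holds the scaffold subunits encoded by Psmd1 and Psmd2 and the ubiquitin receptor encoded by Psmd4, of which 0 of 3 passed. Psmd2 was at 63.7 and 64.6 FPKM in the PBS lungs and at 78.0 and 77.9 FPKM with bleomycin (0.28 ± 0.07, adjusted p = 0.0703). Psmd4 was at 52.4 and 59.6 FPKM in the PBS lungs and at 62.1 and 54.9 FPKM with bleomycin, with overlapping groups (0.06 ± 0.11, adjusted p = 0.723).

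The 19S lid held 3 of the 4 rises among its 8 genes, and 7 of the 8 were higher at an unadjusted p under 0.05. Over all tested genes these shares were 8.59% and 17.2%. Whether the lid differs from the other roles was not tested. Psmd8 (gene 57296, chromosome 7, 29174187 to 29180673), a lid subunit known in yeast as Rpn12, had the largest change of all 41 genes. It stood at 59.8 and 62.6 FPKM in the PBS lungs and at 83.6 and 104.4 FPKM with bleomycin. Both bleomycin libraries were above both PBS libraries, with replicate 2 the higher. Psmd8 rose by 0.60 ± 0.13 (adjusted p = 0.0426), 1.52-fold on the scale of FPKM + 1, and its log2 change was 0.76 without bleomycin replicate 1 and 0.44 without replicate 2. The call was lost without a filter on low genes (adjusted p = 0.0728) and with eBayes without a trend (adjusted p = 0.0551).

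Psmd14 (gene 59029, chromosome 2, 61711694 to 61800376) encodes the deubiquitinase that cuts the chain off the substrate. It was at 21.6 and 24.3 FPKM in the PBS lungs and at 33.5 and 34.8 FPKM with bleomycin, clearly apart. It rose by 0.56 ± 0.09 (adjusted p = 0.0251), 1.47-fold. In every library Psmd14 had the lowest level of the 31 constitutive core and 19S subunits, and it ranked 35 of 41 by level in each group. Psmd7, the gene of its binding partner in the lid, did not pass. Psmd7 was at 51.9 and 55.7 FPKM in the PBS lungs and at 57.4 and 51.0 FPKM with bleomycin (0.01 ± 0.10, adjusted p = 0.963). The ratio of Psmd14 to Psmd7 was 0.417 and 0.436 with PBS and 0.584 and 0.684 with bleomycin, without overlap. This restates the rise of Psmd14 beside a nearly level Psmd7 and is no separate result.

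Psmd11 (gene 69077, chromosome 11, 80428615 to 80473248), which encodes a lid subunit that limits how much capped proteasome is assembled in some cells, was at 29.8 and 30.0 FPKM in the PBS lungs and at 39.3 and 37.4 FPKM with bleomycin. The PBS pair was nearly identical and both bleomycin libraries were higher. It rose by 0.35 ± 0.08 (adjusted p = 0.047), a call also lost without a filter (adjusted p = 0.0524) and with eBayes without a trend (adjusted p = 0.07). The other lid genes did not pass. Psmd3, Psmd6, Psmd12 and Psmd13 had log2 differences of 0.24, 0.28, 0.23 and 0.34 and did not overlap between groups.

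**Figure D2:**
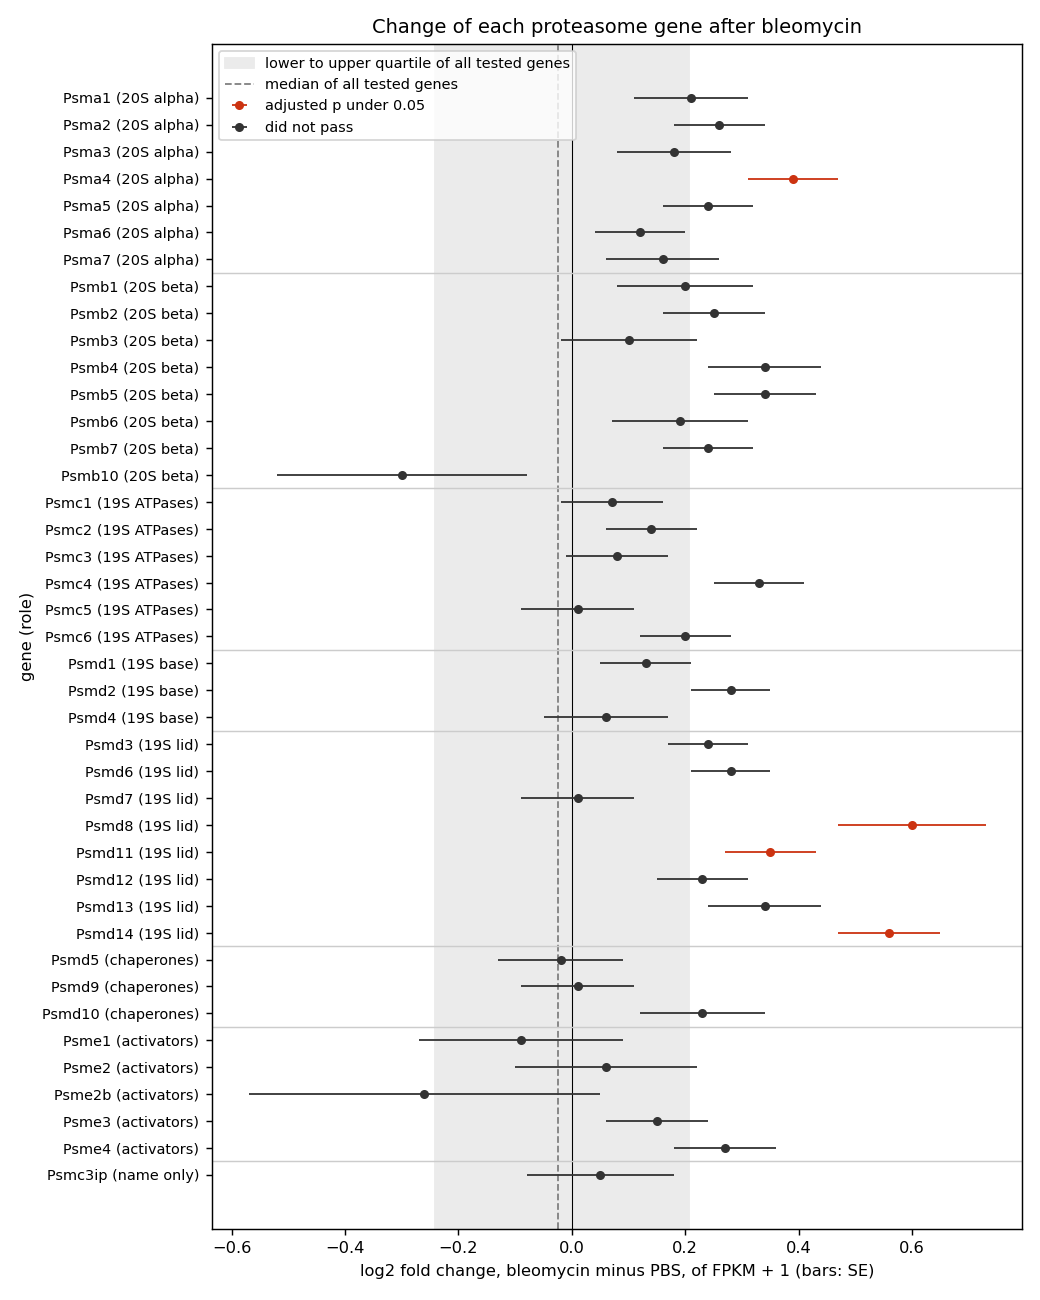
Log2 fold change of FPKM + 1 (bleomycin minus PBS) with its SE for each gene, red where the adjusted p was under 0.05, with a grey band from the lower quartile (-0.24) to the upper quartile (0.21) of all tested genes. Of the 41 genes 19 lie above the band and 2, Psmb10 and Psme2b, below it.

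Assembly chaperones of the 19S base were lower in level and 0 of 3 passed. Psmd10, the oncoprotein gankyrin, was at 13.3 and 11.8 FPKM in the PBS lungs and at 15.8 and 13.9 FPKM with bleomycin (0.23 ± 0.11, adjusted p = 0.22). Both bleomycin libraries lay above both PBS libraries, the nearest of them by less than the gap within either pair. Psmd5 was at 20.4 and 21.4 FPKM in the PBS lungs and at 22.2 and 18.9 FPKM with bleomycin, the bleomycin libraries lying on either side of the PBS pair (-0.02 ± 0.11, adjusted p = 0.899). Psmd9 had a log2 difference of 0.01 ± 0.10.

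Among 5 genes of activators 0 passed. Psme1 and Psme2 encode the PA28 cap, which interferon gamma induces. Psme1 had the highest mean level of all 41 genes. It was at 128.5 and 143.5 FPKM in the PBS lungs and at 149.7 and 108.0 FPKM with bleomycin, with bleomycin libraries above and below both PBS libraries. Psme2 was at 100.6 and 116.4 FPKM in the PBS lungs and at 129.0 and 98.2 FPKM with bleomycin, in the same order. Their log2 differences were -0.09 ± 0.18 (adjusted p = 0.738) and 0.06 ± 0.16 (adjusted p = 0.831). Psme2b, a near copy of Psme2, was at 8.40 and 7.82 FPKM in the PBS lungs and at 9.43 and 4.52 FPKM with bleomycin (-0.26 ± 0.31, adjusted p = 0.585). Of the 50-base words in Psme2b transcripts 69.3% also occur in another gene, mostly Psme2, so its own level is uncertain. Psme4, the gene of PA200, was at 12.9 FPKM in both PBS libraries and at 15.1 and 16.4 FPKM with bleomycin (0.27 ± 0.09, adjusted p = 0.106). Psme3, the nuclear PA28 gamma, had 0.15 ± 0.09 (adjusted p = 0.314). Psmc3ip, the name-only match, was at 3.28 and 2.85 FPKM in the PBS lungs and at 3.46 and 2.96 FPKM with bleomycin.

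The genes showed 2 patterns between replicates, grouped after their values were seen. The 31 constitutive subunits of the core and the 19S regulator had positive log2 differences in 31 of 31 cases, with a median of 0.23 and a range of 0.01 to 0.60. Of all 41 genes 37 were positive, as were 47.3% of tested genes. Among the 31, 26 were higher without overlap, where 31.5% of tested genes were so and 35% lower. For 23 of the 31 the group difference exceeded the gaps within both pairs, as it did for 26 of all 41 genes (63.4%) and for 54.1% of tested genes. Between the PBS libraries 29 of the 31 were higher in replicate 2, with a median gap of 0.08, where 45.9% of tested genes were higher in that replicate. For the 14 core subunits other than Psmb10 that PBS gap was 0.16 at the median, next to a group difference of 0.22. The median over the 41 genes was 5.74 and 5.92 on the log2 scale with PBS and 5.99 and 6.03 with bleomycin. By this median alone PBS replicate 2 lay nearer to the bleomycin libraries than to PBS replicate 1. Taken gene by gene it did not. The median gap between the PBS libraries was 0.07 over the 41 genes. The median difference of bleomycin from PBS replicate 2 alone was 0.14. These genes share their libraries and are no independent replicates of the difference.

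The second pattern was that of Psmb10, Psme1, Psme2 and Psme2b, which parted the bleomycin libraries. The gap between them (replicate 2 minus replicate 1) was -0.61, -0.47, -0.39 and -0.92 on the log2 scale, while the other 37 genes lay between -0.22 and 0.32. Such gaps were common in these libraries. A gap beyond 0.3 in either direction was found for 5 of the 41 genes (12.2%) and for 26.3% of tested genes. Of the 50-base words of Psme2 28.3% occur in another gene, and 69.3% of those of Psme2b, most often in each other. The gaps of these genes may therefore not be separate. All 10 markers of T, B and NK lymphocytes were lowest in bleomycin replicate 2, although 0 of the 9 tested passed between groups. They summed to 72.5 and 60.1 FPKM in the PBS lungs and to 58.4 and 11.3 FPKM with bleomycin. Psmc5, Psmd7 and Psmd5 were lowest in that library as well. Only 37.4% of tested genes were higher in bleomycin replicate 2 than in replicate 1. The share of tested genes lowest in replicate 2 was not counted. The 10 macrophage markers summed to 2562 and 3163 FPKM in the PBS lungs and to 5980 and 2072 FPKM with bleomycin, and 5 of the 10 rose between groups. Most of that sum is Lyz2, the lysozyme gene, and without it the other 9 summed to 257 and 271 FPKM in the PBS lungs and to 988 and 465 FPKM with bleomycin. Of the macrophage markers 3 were lowest in bleomycin replicate 2, while 7 were higher there than in both PBS libraries. The part of either list in the levels of the 4 genes was not tested. In bulk tissue fewer cells of a type and less RNA per cell cannot be told apart. Proliferation markers, of which 8 of 10 rose, summed to 87.2 and 92.2 FPKM in the PBS lungs and to 192 and 164 FPKM with bleomycin. Without Pcna, the replication clamp gene that made up most of the PBS sums and did not pass, the other 9 summed to 26.1 and 25.8 FPKM in the PBS lungs and to 102 and 84.6 FPKM with bleomycin. Their part in the rise of the lid genes was not tested.

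**Figure D3:**
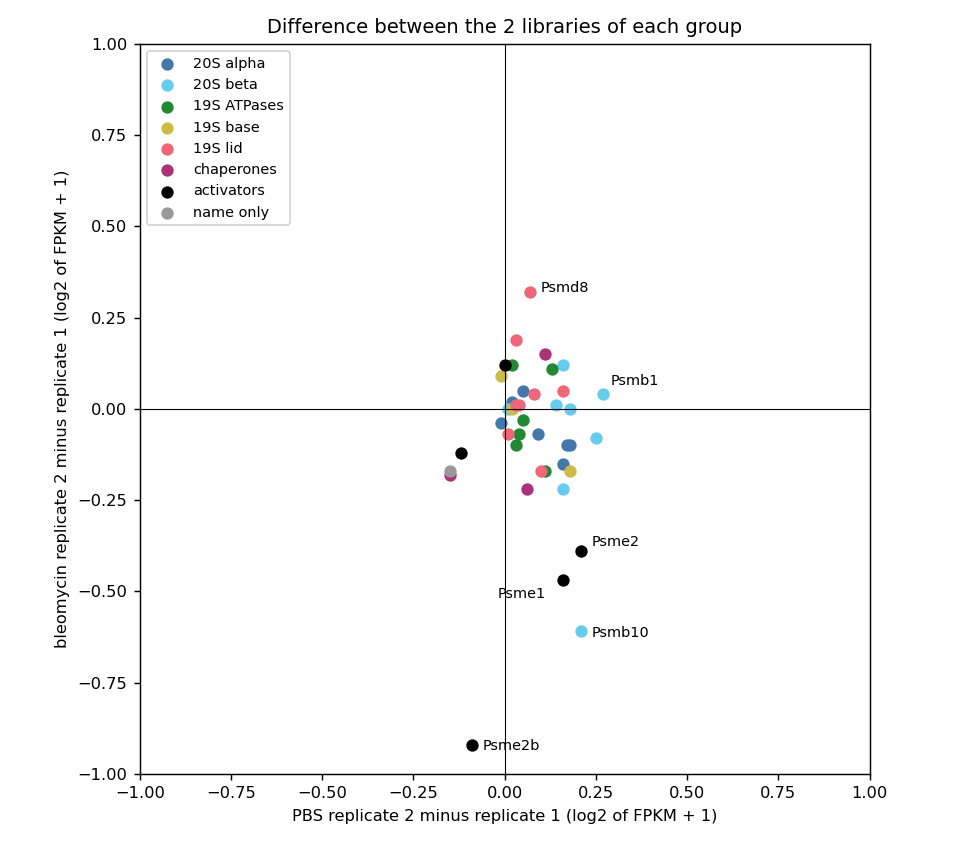
Difference between the libraries of each group on the log2(FPKM + 1) scale, PBS on the horizontal and bleomycin on the vertical axis, with 1 point per gene coloured by role. Most points lie near 0 on the vertical axis, while Psme2, Psme1, Psmb10 and Psme2b lie at -0.39 to -0.92, and 35 of 41 points lie to the right of 0 on the horizontal axis.

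Levels per transcript length varied within each assembly. The alpha ring genes spanned a 1.93 to 2.16-fold range of FPKM in the 4 libraries and the ATPase genes a 2.04 to 2.31-fold range, and the lid a 2.49 to 3-fold range. The beta ring, Psmb10 included, spanned a 2.09 to 3.79-fold range, widest in bleomycin replicate 2. Summed over the 41 genes the level was 2359 and 2545 FPKM in the PBS lungs and 2852 and 2734 FPKM with bleomycin. That is 0.484% and 0.516% of all summed FPKM in the PBS lungs and 0.602% and 0.593% with bleomycin, a share that also moves with Scgb1a1. By mean level with PBS the first 3 genes were Psme1, Psmb3 and Psmb7, and with bleomycin Psmb7, Psmb4 and Psme1. With PBS the libraries of Psmb3 and Psmb7 overlapped while both of Psme1 were higher, and with bleomycin the libraries of all 3 leading genes overlapped.

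The wider ubiquitin and proteasome system was read from lists of genes outside the name rule. Of 19 further assembly factors, subunits and regulators 2 rose (10.5%), 0 fell and 17 did not pass, with a median of 0.08. Usp14, a deubiquitinase bound to the 19S base, rose from 11.8 ± 0.113 to 15.8 ± 0.354 FPKM (SD, n = 2, log2 change 0.39 ± 0.08, limma adjusted p = 0.0406). Txnl1, a thioredoxin-like protein bound to the 19S regulator, rose from 23.4 ± 0.651 to 31.0 ± 1.02 FPKM (0.39 ± 0.08, adjusted p = 0.0376). Nfe2l1, chosen after its values were seen, encodes NRF1, the factor known to raise proteasome genes when proteasome activity is low. It was at 91.4 and 91.7 FPKM in the PBS lungs and at 83.5 and 84.7 FPKM with bleomycin (-0.12 ± 0.08, adjusted p = 0.315).

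Ubiquitin itself and its activating enzymes held 0 calls among 6 genes, with the polyubiquitin gene Ubb at 1348 and 1476 FPKM in the PBS lungs and 1330 and 1135 FPKM with bleomycin. Of 12 genes of the p97 segregase and of ubiquitin shuttles 0 passed, with a median of -0.03. Vcp, the gene of p97, was at 113.0 and 108.8 FPKM in the PBS lungs and at 138.1 and 143.3 FPKM with bleomycin (0.34 ± 0.08, adjusted p = 0.0555). Other large cytosolic complexes gave smaller medians than the 0.20 of the 41 genes, and these differences between groups of genes were not tested. The COP9 signalosome, whose architecture resembles the lid, had a median of 0.10 with 0 of 9 called. Its highest gene by level, Cops6, had a log2 difference of 0.26 ± 0.08 (adjusted p = 0.105). The translation factor eIF3, also related to the lid, had 0.09 with 0 of 13 called, and the TRiC chaperonin 0.14 with 0 of 8. Their highest genes by level, Eif3h and Cct5, had -0.09 ± 0.11 and -0.01 ± 0.09. Of these lists 3 of 9, 6 of 13 and 5 of 8 genes were higher without overlap, and 2 of 9, 1 of 13 and 0 of 8 were lower, where 31.5% of tested genes were higher and 35% lower.

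**Figure D4:**
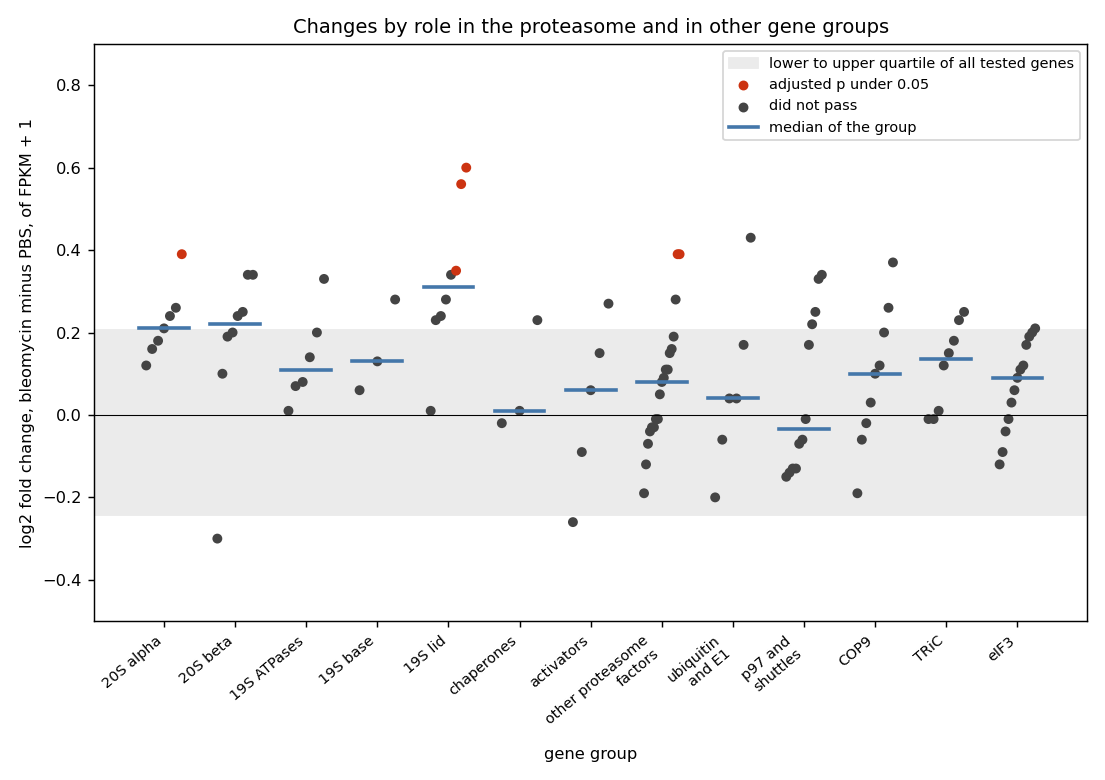
Log2 fold change of FPKM + 1 (bleomycin minus PBS) of each gene by role in the proteasome and in 6 other gene groups, with the median of each group as a blue line, called genes in red and the quartile band of all tested genes in grey. The lid has the highest median of the proteasome roles shown, 0.31, and COP9, TRiC and eIF3 lie at 0.10, 0.14 and 0.09.

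The genes lie on 15 chromosomes, 10 of them on chromosome 11. Psme1 and Psme2 are close together on chromosome 14. Psme1, on the plus strand, ends at 55581527, and Psme2, on the minus strand, spans 55587440 to 55591101. Strand of the libraries is not given in the sources used here, so for 10 of the 41 genes that share exon bases with a gene on the opposite strand the reads cannot be told apart. Among the 4 that rose this holds for Psma4, over 114 bases shared with AY074887, which was at 3.23 to 5.64 FPKM. Psmb7 shares 253 bases with Nek6, which was at 6.66 and 6.40 FPKM in the PBS lungs and 18.0 and 17.7 FPKM with bleomycin. Processed copies also matter: 54.1% of the 50-base words of Psmb5 and 49.1% of those of Psma5 occur in another annotated gene, against 0 for Psmd8, 0.854% for Psmd14, 7.34% for Psmd11 and 11.6% for Psma4.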

How the data were processed

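Lung RNA was sequenced, and 4 libraries, 2 per group by their titles, entered the comparison. The labels mention more groups and replicates, which were not analysed here. The values are FPKM as deposited by the authors in 1 table, rounded to 2 decimals. The submitters' processing notes name Bowtie2, HISAT, mm10 and GRCm38, and what each was used for is not given in the sources used here.

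Of 17692 rows, 1 had no gene name (at most 0.0009% of a library) and was left out, and 27 date-like names were restored by RefSeq accession. The test was limma 3.58.1 (R 4.3.3), with a trend in eBayes and 2.76 prior and 2 residual degrees of freedom, on log2(FPKM + 1) of the 12986 genes whose mean reached 1 FPKM, two-sided, with Benjamini-Hochberg adjustment over all of them and a threshold of 0.05. The scale understates the change of low genes. Depth was estimated from genes with 1 transcript of 300 to 1000 bases at 0.03 to 0.3 FPKM, where 75% to 78.1% of values were whole fragments to within 0.15, and chance gives 30%. The depth was picked on the same values, and annotated lengths were used. The lowest estimate over the 31 constitutive subunits was 566 fragments (Psmd14). No count model was run.

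The members and lists were chosen with earlier results of these data known. Per-library values are given for each called gene and for those with the largest and smallest change in each role. From other lists come up to 3 called genes with the largest change, or the gene of the highest mean. In a simulation of this contrast over 12986 genes, 91% of 100 genes changed by 1 on the log2 scale and 99% of 100 changed by 2 were called, with 13 false calls among 203. Changes as small as those of the proteasome genes were not simulated. Positions are of GRCm38.p6 from RefSeq, and exon overlaps and 50-base words are from GENCODE annotation of GRCm38. Alternatives were pseudocounts of 0.1 and 0.5, no filter, a filter at 5 FPKM, rescaling to TPM, quantile normalization, eBayes without a trend, the replicate number as a block, and each library left out in turn. Tables were made in Python 3.11.15 with numpy 2.4.6 and pandas 2.3.3.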

Additional observations from a re-analysis of the deposited data

How the results depend on the processing

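With 2 libraries per group the number of called proteasome genes depended on the setting, while the median log2 change of the 41 genes stayed between 0.14 and 0.27 under every alternative run. Instead of 4, rises numbered 8 after rescaling to TPM (11.1% of all tested genes rose there), 2 without a filter and 1 with eBayes without a trend. Psmd14 was among them in each of these and Psmc4, Psmd2, Psmd6 and Psmb5 were added by TPM. Without 1 library limma gave 0 to 14 rises and 0 to 3 falls among the 41 genes, and 0 to 2402 rises and 0 to 3144 falls over all tested genes. Without a bleomycin library the spread rests on the PBS pair, and the lone bleomycin library is assumed to vary like that pair. The zeros are from leaving out PBS replicate 1 or 2. There the spread rests on the bleomycin pair and the lone PBS library is assumed to vary like it. At an unadjusted p under 0.05 that gave 1 and 3 of the 41 higher, with 1120 and 1143 higher and 1007 and 1059 lower over all genes. Without bleomycin replicate 1 (18% of tested genes rose and 24.2% fell) the 3 falls were Psmb10, Psme1 and Psme2b. Without bleomycin replicate 2, 18.5% of tested genes rose and 15% fell. With either bleomycin library left out the 4 calls were kept.

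Differences near 0 changed sign. Psmc5 was at -0.05 and Psmd7 at -0.03 with quantile normalization, and Psmd5 at 0.04 with TPM. Over the fits without 1 library Psmc3ip ran from -0.04 to 0.14, Psmc5 from -0.07 to 0.09, Psmd4 from -0.03 to 0.15, Psmd5 from -0.13 to 0.09, Psmd7 from -0.08 to 0.09 and Psme2b from -0.72 to 0.20. With the replicate block 2 genes rose, Psmd8 and Psmd14, where 6.48% of all tested genes rose. The numbers are not known to pair the libraries, and deviations of same-numbered libraries had a correlation of 0.02 across genes.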
